A study of Mus musculus with 2 samples.

Results

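The genes described here are Bdh1, Acat1 and Slc16a1, which serve the making and export of ketone bodies, and Pdk1, Pdk2, Pdk3 and Pdk4, the pyruvate dehydrogenase kinases. They were chosen by gene symbol, as every probe set that the platform annotation names for 1 of these 7 genes alone, and make up 14 of the 45101 probe sets and 7 of the 18193 genes so named. Liver RNA of male C57Bl/6J mice, 9 weeks old when housed, was measured on Affymetrix arrays. The labels give 112 days of feeding on an n-3 PUFA-depleted diet, in which sunflower oil replaced soybean oil, with a split of the mice in the last 10 days of the experiment, and do not say outright whether those 10 days are part of the 112. In those days the DEF/FOS mice stayed on the depleted diet, with an n-6/n-3 PUFA ratio of 127.2, and took 0.25 g per day of fructooligosaccharides, a fermentable fibre, in their drinking water. The DEF/CT mice went back for the same days to the control diet, with a ratio of 6.9. The labels give 8 mice for each of these groups, and 4 to 8 mice per pool over the whole study, and both groups share the long depletion. RNA of the mice of a group was pooled in equal amounts and each pool was put on 1 array, so nothing could be replicated or tested, and the differences below are between 2 pools. The pools differ in both oil and fibre, and the effects of these cannot be told apart.

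Ketone bodies are made in liver mitochondria from the acetyl-CoA of fatty acid oxidation and are burned by other organs when glucose is scarce. The pathway begins with the joining of acetyl-CoA units by a thiolase, leads to acetoacetate, and ends with the reduction of acetoacetate to beta-hydroxybutyrate, which leaves the cell through proton-linked monocarboxylate transporters. The pyruvate dehydrogenase kinases act at a neighbouring step: they phosphorylate and inactivate the pyruvate dehydrogenase complex, which would otherwise turn pyruvate into acetyl-CoA. Pdk4 is known as the family member raised by fasting and by fatty acids acting through the receptor PPARα, and Pdk2 as the widely expressed one.

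The sequences just upstream of the genes with the largest differences show how unlike their promoters are. The windows below are the 250 bases before the annotated start, from the RefSeq promoter table of build GRCm38.p6. Where a gene has more than 1 start, the most upstream is shown. They are given for the 3 genes that passed 1.5-fold in the DEF/FOS pool and for Pdk2, the one with the largest difference the other way. Capitals mark matches on either strand to 1 of 6 motifs: the E-box CACGTG, the promoter box CCAAT, the nuclear receptor motif AGGTCA, the direct repeat of that motif with any 1 base between, the forkhead motif TGTTTAC and the TATA box TATAAA. Each match to the direct repeat is also a match to AGGTCA, and CCAAT on the minus strand reads as its reverse complement. The windows lie at chr3:104638414-104638663 on the plus strand for Slc16a1, at chr16:31422047-31422296 on the plus strand for Bdh1, at chr6:5496279-5496528 on the minus strand for Pdk4 and at chr11:95041372-95041621 on the minus strand for Pdk2.
Slc16a1: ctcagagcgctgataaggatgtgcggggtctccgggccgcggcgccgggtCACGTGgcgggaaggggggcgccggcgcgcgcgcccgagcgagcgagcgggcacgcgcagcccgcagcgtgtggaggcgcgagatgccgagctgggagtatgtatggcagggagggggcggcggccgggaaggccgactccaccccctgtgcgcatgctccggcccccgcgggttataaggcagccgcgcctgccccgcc
Bdh1: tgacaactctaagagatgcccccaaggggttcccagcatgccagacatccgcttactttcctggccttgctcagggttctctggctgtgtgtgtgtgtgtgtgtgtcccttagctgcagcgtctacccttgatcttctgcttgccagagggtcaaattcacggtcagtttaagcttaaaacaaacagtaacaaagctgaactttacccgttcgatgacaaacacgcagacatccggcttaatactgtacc
Pdk4: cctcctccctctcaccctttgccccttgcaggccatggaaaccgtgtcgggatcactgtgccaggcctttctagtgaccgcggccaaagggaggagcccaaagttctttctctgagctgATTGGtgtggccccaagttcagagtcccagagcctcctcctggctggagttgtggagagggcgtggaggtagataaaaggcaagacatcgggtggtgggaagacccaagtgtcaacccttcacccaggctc
Pdk2: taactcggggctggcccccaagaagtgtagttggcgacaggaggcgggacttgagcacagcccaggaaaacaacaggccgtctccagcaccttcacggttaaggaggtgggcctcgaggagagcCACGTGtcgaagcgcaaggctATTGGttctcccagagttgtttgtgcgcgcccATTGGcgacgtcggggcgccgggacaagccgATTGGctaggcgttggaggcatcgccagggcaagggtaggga
The Slc16a1 window is 76.4% G and C and has 37 CG pairs, where the median of all 32851 promoter windows is 52.4% and 6 pairs. The Pdk4 window is 58.8% G and C with 6 CG pairs, the Bdh1 window 49.6% with 7 and the Pdk2 window 62.4% with 19. CACGTG is found in the Slc16a1 window, beginning 200 bases before the start, and in the Pdk2 window, beginning 126 bases before it, and 6.02% of all windows hold it. CCAAT is found once in Pdk4, 131 bases before the start, and 3 times in Pdk2, and 33.8% of all windows hold it. The nuclear receptor motif AGGTCA has 0 matches in these 4 windows and is held by 14.0% of all windows, while its direct repeat is in 11 windows of the 32851. TGTTTAC, held by 3.17% of all windows, and TATAAA, held by 12.4%, also have 0 matches in the 4 windows. The table matched 6 of the 7 genes, with 9 starts in all. Acat1 was not matched. Bdh1 and Pdk2 each have a second start further downstream, whose window has 0 matches to the 6 motifs. The 3 genes past 1.5-fold in the DEF/FOS pool share 0 of the 6 motifs in the windows shown. With 3 windows and motifs held by at most 33.8% of all windows, this says little about these genes. Among the 4 windows shown the E-box is in a gene that was higher and in one that was lower.

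The values are MAS5 signals, the linear intensity that the Affymetrix software gives for each probe set, scaled by the authors to the same trimmed mean in both arrays. Differences are log2 of the DEF/FOS signal over the DEF/CT signal, centred on their median, which was -0.01 before centring. Probe sets were read only above a floor, a mean signal of 19.4, which is the median once array controls are left out; it is a chosen limit and no detection call. Signals are compared between pools for the same probe set and not between genes. As a measure of technical spread, the SD between probe sets of 1 gene was 0.23 on the log2 scale at signals above 208. It was 0.32 at signals from 98.2 to 208, 0.41 from 55.5 to 98.2 and 0.53 from 20.0 to 55.5. Over all 4885 genes with more than 1 probe set above the floor this SD was 0.38. It leaves out the spread between mice and between arrays.

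Among the ketone body genes all 3 had a positive difference. Slc16a1, the monocarboxylate transporter MCT1 that carries lactate, pyruvate and ketone bodies across the plasma membrane, had a DEF/FOS signal of 1014 and a DEF/CT signal of 632. It was thus 1.62-fold higher in DEF/FOS, a log2 difference of 0.70 or 3.05 times the SD between probe sets at that signal. A second Slc16a1 probe set had signals of 2.89 and 0.982, below the floor in both pools, and gives no value for the comparison. Bdh1, the mitochondrial dehydrogenase that makes beta-hydroxybutyrate from acetoacetate, had a DEF/FOS signal of 2401 and a DEF/CT signal of 1579 by its brightest probe set, a 1.54-fold difference or 0.62 on the log2 scale. Its other probe set had signals of 308 and 259, 0.26 on the log2 scale, so both probe sets had the higher signal in the DEF/FOS pool and only the brighter one passed 1.5-fold. In bulk tissue, more cells of a type and more RNA per cell cannot be told apart.

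Acat1, the mitochondrial acetoacetyl-CoA thiolase that stands at the start of ketone body synthesis and also works in isoleucine breakdown, differed least of the 3. Its brightest probe set had a DEF/FOS signal of 3590 and a DEF/CT signal of 3207, a 1.13-fold difference. The other probe sets had 2625 against 2165 and 423 against 387. The log2 differences of the 3 probe sets ran from 0.14 to 0.29, all positive, and that of the brightest was 0.78 of the SD between probe sets at that signal. Slc16a1 and Acat1 lay 0.52 apart in their log2 differences, and Bdh1 and Acat1 0.44 apart.

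**Figure D1:**
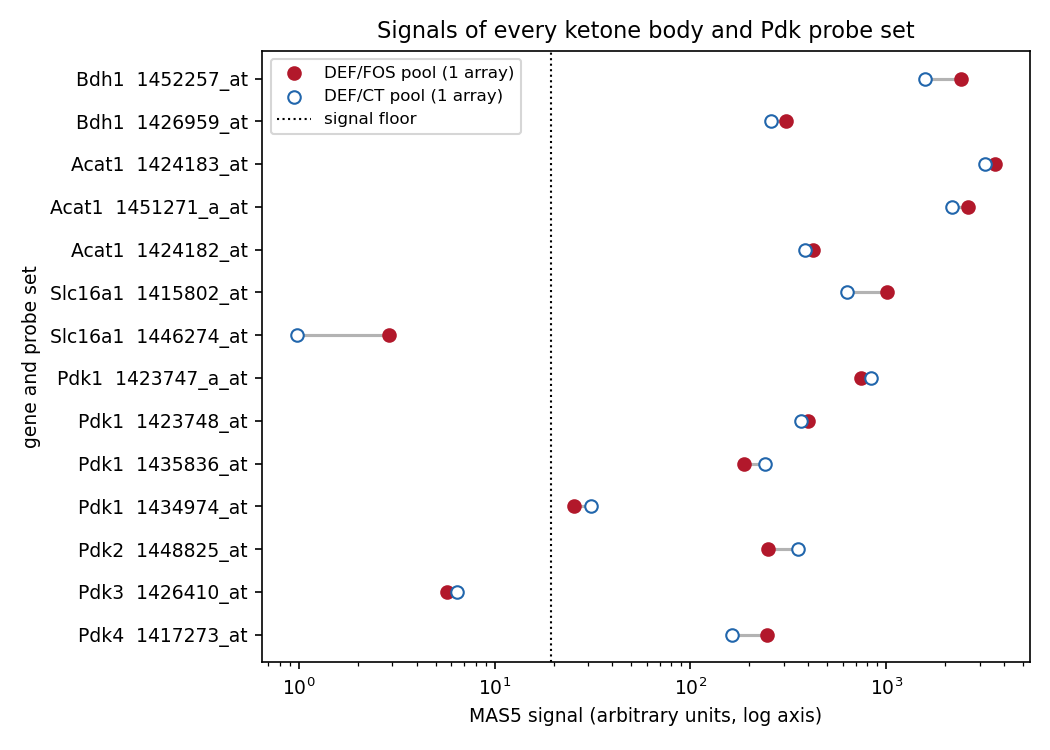
MAS5 signal on a log axis for each of the 14 probe sets, with filled points for the DEF/FOS pool, open points for the DEF/CT pool (1 array each) and a dotted line at the floor of 19.4. The filled point lies to the right in every Bdh1, Acat1 and Slc16a1 probe set and in Pdk4, to the left in Pdk2, and on both sides among the probe sets of Pdk1; Pdk3 and 1 Slc16a1 probe set lie below the floor.

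The kinases did not move as a family. Pdk4, the isoform known to be induced by fasting, had a DEF/FOS signal of 246 and a DEF/CT signal of 164. This was 1.52-fold higher in DEF/FOS, with a log2 difference of 0.60 or 1.87 times the SD between probe sets at that signal. Pdk2, the broadly expressed isoform of the liver, had the opposite difference, with 250 in DEF/FOS against 354 in DEF/CT. It was 1.40-fold lower in DEF/FOS, with a log2 difference of -0.48 or 2.12 times the SD of 0.23 that holds at its own, higher signal, where the SD of 0.32 was used for Pdk4. Pdk4 and Pdk2 have 1 probe set each, so neither has a second reading within the array. The log2 differences of these kinases were 1.09 apart, so the ratio of the Pdk4 to the Pdk2 signal was 2.13-fold higher in DEF/FOS.

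Pdk1, an isoform known as a target of the hypoxia factor HIF-1, had 4 probe sets above the floor, and they disagreed in sign. The brightest had 742 in DEF/FOS against 838 in DEF/CT, a log2 difference of -0.16. The next had 397 against 365, a difference of 0.13. The other two had 188 against 241 and 25.3 against 31.1, differences of -0.35 and -0.28. Of the 4, 3 were thus lower in the DEF/FOS pool, by at most 1.27-fold, and no direction is given for the gene. Pdk3 had 5.69 and 6.42 in its only probe set, below the floor in both pools, so no fold was computed for it.

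**Figure D2:**
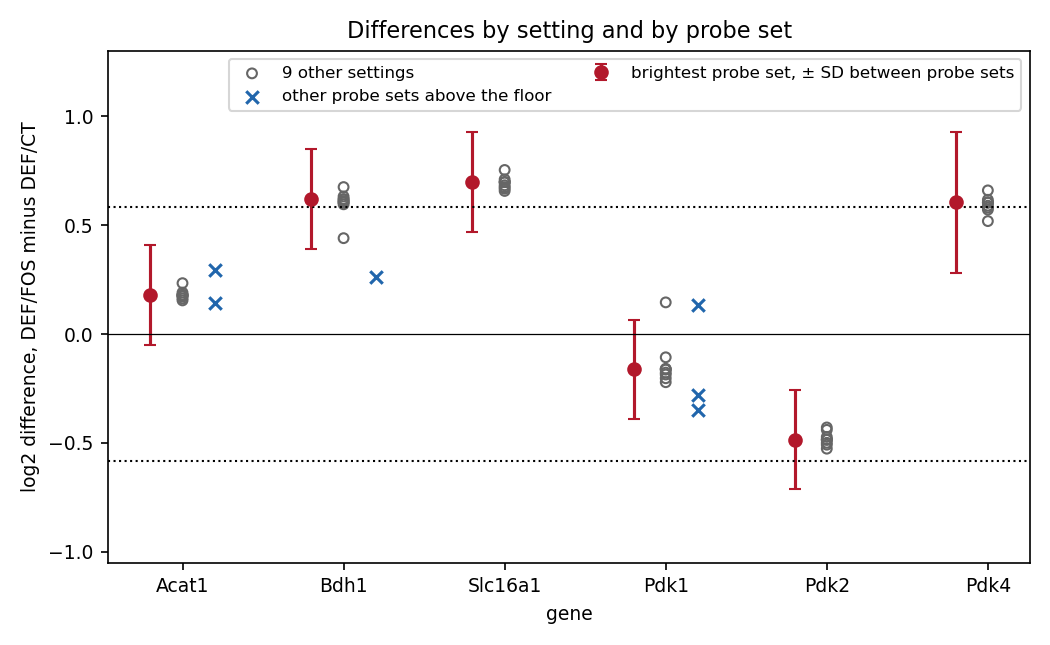
Log2 difference (DEF/FOS minus DEF/CT) of the 6 genes above the floor, with the brightest probe set as a filled point with bars of 1 SD between probe sets at like signal, the 9 other settings as open circles and the other probe sets above the floor as crosses; dotted lines mark 1.5-fold. The filled points of Bdh1, Slc16a1 and Pdk4 lie above the upper line, Pdk2 lies between 0 and the lower line, and Pdk1 has points on both sides of 0.

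Of the 6 genes measured, 3 passed 1.5-fold upwards in the DEF/FOS pool, beside 6.75% of the 11163 genes that lay above the floor. None of the 6 passed 1.5-fold downwards, beside 7.82% of all genes. At 2-fold the count was 0 in both directions, beside 1.74% of all genes higher and 2.19% lower. The median log2 difference was 0.39 over the 6 genes and -0.0004 over all genes. It was 0.62 over the 3 ketone body genes, which is the value of Bdh1. Over the 3 kinases measured it was -0.16, which is the value of Pdk1, whose probe sets disagreed in sign. The median over the 6 genes rests on single ones: it was 0.18 without Bdh1, Slc16a1 or Pdk4 and 0.60 without Acat1, Pdk1 or Pdk2. Of all genes above the floor, 4.44% had a difference at least as large as that of Slc16a1, 5.95% as that of Bdh1 and 6.30% as that of Pdk4, and 11.1% lay at least as low as Pdk2. The genes were picked with earlier results of these arrays known, so these shares describe them and do not test them.

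Bdh1 and Pdk4 lie close to 1.5-fold, a log2 difference of 0.585, and the count depends on that. Over 10 settings of the processing Pdk4 ran from 0.52 to 0.66, Bdh1 from 0.44 to 0.67 and Slc16a1 from 0.66 to 0.75. Above the 75th percentile of signal, a mean of 84.3, where differences were centred anew, all 6 genes were kept, 2 of them passed 1.5-fold and Pdk4 stood at 0.58. Of 6751 genes there, 3.61% passed 1.5-fold upwards and 3.14% downwards.

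**Figure D3:**
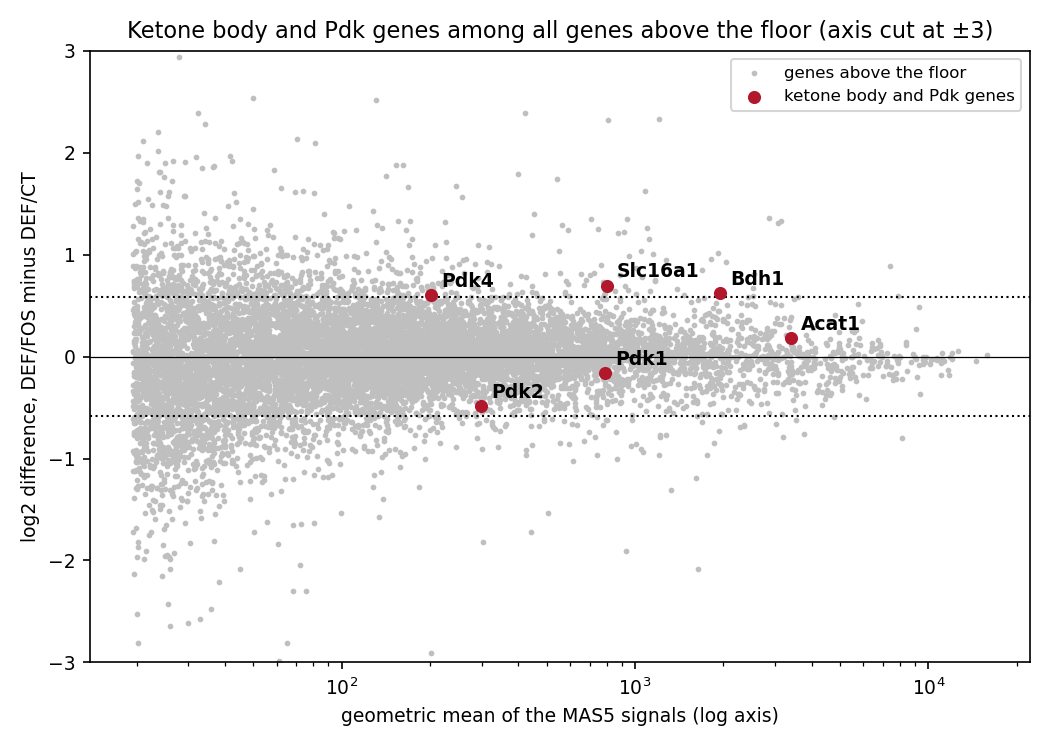
Log2 difference (DEF/FOS minus DEF/CT) against the geometric mean signal on a log axis for the 11163 genes above the floor (grey), with the 6 ketone body and kinase genes labelled; dotted lines mark 1.5-fold and 13 genes lie outside the axis. Slc16a1, Bdh1 and Pdk4 sit at or just above the upper line, and the cloud of genes is narrower at the signal of Bdh1 and Acat1 than at that of Pdk4.

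The nearest genes in mean signal and log2 difference were taken as those with the most similar pattern over the 2 arrays. For Bdh1 these were Decr1 and Acadl, both enzymes of mitochondrial fatty acid oxidation, with log2 differences of 0.52 and 0.51. For Slc16a1 they were Mid1ip1, an activator of acetyl-CoA carboxylase, at 0.73, and Erdr1 at 0.62. For Pdk4 they were Pds5a, a cohesin regulator, at 0.64 and Abca3, a lipid transporter, at 0.59. For Pdk2 they were Car5a, a mitochondrial carbonic anhydrase, at -0.53 and Cxxc5 at -0.54. For Acat1 they were Arf1 at 0.19 and Rps27l at 0.17, and for Pdk1 the transcripts 9130016M20Rik and AY036118, both at -0.18. With 2 arrays, likeness rests on 2 numbers per gene.

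The other genes of ketone body metabolism and monocarboxylate transport went both ways. Of 19 entries 14 had a probe set and 10 lay above the floor, with a median of -0.11. Of the 10, 2 passed 1.5-fold downwards and 0 upwards, beside 7.82% and 6.75% of all genes. Oxct1, the enzyme that lets tissues other than liver burn ketone bodies, was 1.76-fold lower, at 44.5 against 79.2. All 4 of its probe sets were lower, by -0.30 to -1.49 on the log2 scale. The probe set at -1.49 had 13.7 in DEF/FOS, below the floor, against 39.0 in DEF/CT. Slc16a3, the lactate exporter MCT4 of glycolytic muscle, had 15.6 against 29.5, the former below the floor. Slc16a7, the transporter MCT2, was 1.41-fold higher at 286 against 205. Bdh2, a cytosolic hydroxybutyrate dehydrogenase, was 1.42-fold lower at 118 against 168. Bsg, the chaperone that brings MCT1 to the membrane and named here after its value was seen, had 935 against 968, a log2 difference of -0.04.

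Oxct1 and Slc16a3 are also expressed in skeletal muscle, and muscle markers differed between the pools. Of 24 skeletal muscle markers 18 lay above the floor by their mean signal, and all 18 were lower in DEF/FOS. Of the 18, 17 were lower by 1.5-fold or more, beside 7.82% of all genes. With DEF/FOS signals below the floor used as they were, the median of the markers was -2.90. Their summed signal was 366 in DEF/FOS against 3740 in DEF/CT, single markers ran from 1.18 to 62.4 and from 12.7 to 677, and none was at 0 in either pool. Acta1, skeletal actin, had 16.9 against 677, and Ckm, the muscle creatine kinase, 11.7 against 239. Pdk2, Pdk4 and Slc16a1 are expressed in muscle as well. The part of muscle RNA in the differences of Pdk2, Oxct1 and Slc16a3, which have the same direction as the muscle markers, was not tested. Pdk4 and Slc16a1 have the opposite direction.

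The target of the kinases, the pyruvate dehydrogenase complex, had mostly small differences, more of them positive than negative. With its phosphatases, lipoylation enzymes and pyruvate carriers, 12 of the 14 genes with a probe set lay above the floor, 9 with a positive difference, beside 5575 of all 11163 genes. Their median was 0.13, and 1 passed 1.5-fold upwards and 0 downwards, beside 6.75% and 7.82% of all genes. Pdhb, the beta subunit of the first enzyme, was 1.31-fold higher at 2368 against 1820, although its other probe set differed by -0.01. Pdha1, the subunit that the kinases phosphorylate, had 953 against 967, a log2 difference of -0.01, and 0.26 in its other probe set. Dlat, the acetyltransferase core to which the kinases bind, was 1.19-fold higher, and Pdhx, which anchors the third enzyme of the complex, 1.35-fold. The gene that passed 1.5-fold was Lipt1, a lipoyltransferase, 1.70-fold higher at 110 against 65.2. Of the phosphatases that undo the kinases' work, Pdp2 was 1.44-fold lower at 94.1 against 137, and Pdp1 had a mean signal below the floor, with 21.7 and 11.1.

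**Figure D4:**
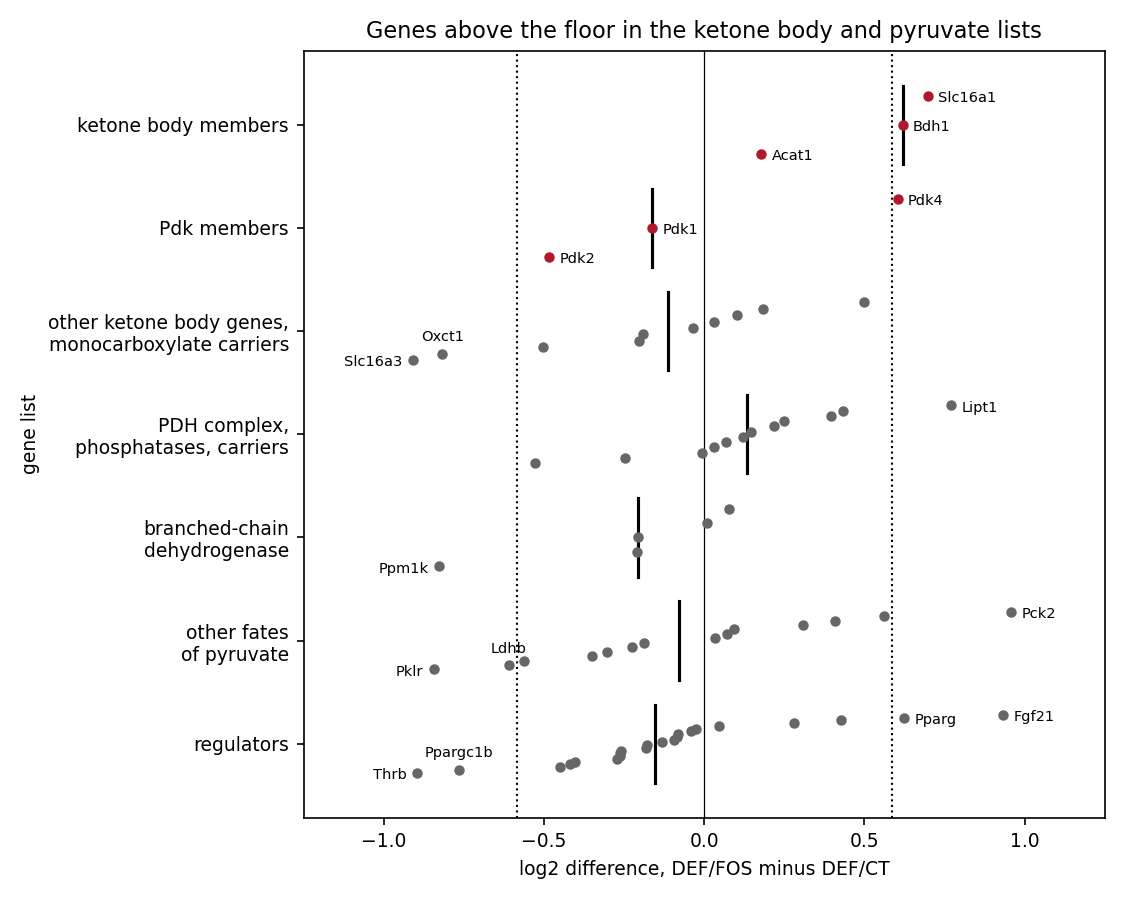
Log2 difference (DEF/FOS minus DEF/CT) of each gene above the floor in 7 gene lists, as points, with the median of each list as a vertical bar and dotted lines at 1.5-fold; names are given for the ketone body and kinase genes and for genes past 1.5-fold. The median lies at 0.62 for the ketone body genes and between -0.21 and 0.13 for the other lists.

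The branched-chain ketoacid dehydrogenase, a sister complex with its own kinase, differed mainly in its phosphatase. Bckdk, its kinase and a relative of the Pdk family, had 69.4 in DEF/FOS against 69.7 in DEF/CT. Ppm1k, the phosphatase, was 1.77-fold lower at 499 against 896, and its other probe set differed by -1.23 on the log2 scale. The median over its 5 genes above the floor, of 6 listed, was -0.21. Of the 5, 1 passed 1.5-fold downwards and 0 upwards, beside 7.82% and 6.75% of all genes. Bckdha and Dbt, subunits of the complex, both differed by -0.21, and Bckdhb by 0.08.

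On the other routes of pyruvate 14 genes lay above the floor, with a median of -0.08. Of the 14, 1 passed 1.5-fold upwards and 2 downwards, beside 6.75% and 7.82% of all genes. Pklr, the liver pyruvate kinase that makes pyruvate, was 1.80-fold lower at 412 against 747, with all 3 of its probe sets lower by at least 0.59. Ldhb, a lactate dehydrogenase subunit common in heart and oxidative muscle, was 1.53-fold lower at 78.9 against 122, in the direction of the muscle markers. All 4 of its probe sets were lower, with log2 differences from -0.61 to -1.54. The probe set at -1.54 had 17.7 in DEF/FOS, below the floor, against 52.0 in DEF/CT. Ldha, the subunit of liver and fast muscle, also named after its values were seen, was 1.33-fold higher at 5497 against 4183. Pck2, the mitochondrial phosphoenolpyruvate carboxykinase, was 1.94-fold higher at 51.3 against 26.7. Me2, a mitochondrial malic enzyme, had 18.7 against 27.9, with the first below the floor. Me1, the cytosolic malic enzyme and a gene named here after its values were seen, was 1.48-fold higher at 4225 against 2893.

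Genes that control Pdk4 and ketone body synthesis did not share 1 direction. Of 23 listed, 22 lay above the floor, 5 with a positive difference and 17 with a negative one, beside 5575 and 5587 of all 11163 genes. Their median was -0.15, and 2 passed 1.5-fold in each direction, beside 6.75% of all genes upwards and 7.82% downwards. Fgf21, the fasting hormone of the liver and a PPARα target, was 1.91-fold higher in DEF/FOS at 267 against 141. Ppara itself, the receptor that drives ketone body genes and Pdk4, was 1.34-fold lower at 963 against 1300, and all 3 of its probe sets were lower, by -0.41 to -0.50 on the log2 scale. Pparg, the related receptor of fat tissue, was 1.54-fold higher at low signal, 43.2 against 28.3. Ppargc1b, a coactivator of mitochondrial genes, was 1.70-fold lower at 136 against 234, while its relative Ppargc1a had 102 against 105. Foxo1, the insulin-restrained activator of Pdk4, had 245 against 240, with probe sets from -0.43 to 0.05. Thrb, the liver thyroid hormone receptor, was 1.86-fold lower at 24.3 against 45.7.

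The arrays as a whole were alike in scale, with a median signal of 19.6 for DEF/FOS and 22.0 for DEF/CT. Hepatocyte markers bore out the tissue label: all 10 with a probe set lay above the floor in both pools, with a median difference of -0.02 and albumin (Alb) at 11023 and 11303. The median difference was 0.05 over 7 endothelial markers, -0.06 over 7 stellate cell and fibroblast markers and 0.22 over 9 Kupffer cell and macrophage markers. It was 0.51 over 3 cholangiocyte markers, 1.66 over 5 neutrophil markers, -0.48 over 2 erythroid markers and 0.14 over 2 adipocyte markers. The 3 cholangiocyte markers had low signals, where the SD between probe sets was 0.53. In DEF/FOS against DEF/CT, Krt19 had 26.1 against 17.2, the latter below the floor. Sox9 had 41.3 against 29.4 and Epcam 37.8 against 33.6. The neutrophil median rests on Lcn2, S100a8 and S100a9, at 2.53, 2.13 and 1.66, while Ngp was at 0.10 and Elane at -0.30. The other neutrophil markers lay below the floor by their mean signal and went both ways. In DEF/FOS against DEF/CT, Mpo had 2.83 against 21.8, Ltf 2.84 against 11.6, Camp 1.28 against 1.80 and Cxcr2 29.6 against 3.88. Ngp and these low markers were named after their values were seen. Slc16a1 is expressed in blood and supporting cells too, and the part of these cells in its difference was not tested.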

How the data were processed

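The deposited table gives a linear MAS5 intensity for each of 45101 probe sets on 2 arrays, 1 pool of liver RNA each, made by the authors with the tools GCOS and MAS5, per the submitters' processing notes, with versions not given in the sources used here. The table has no detection calls. Both arrays had a mean signal of 100.0 when 2% of the values were trimmed from each end. A MAS5 signal subtracts mismatch probes, so low signals are noisy.

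Gene names are those of the platform annotation, of some age, which named 34958 probe sets for 1 gene; 34754 matched a RefSeq gene of GRCm38.p6 by Entrez identifier, and 0 symbols were updated. Log2 signals were subtracted with no offset and centred with Python 3.11.15, pandas 2.3.3 and numpy 2.4.6. A gene was represented by its brightest probe set. Where 1 pool was below the floor, the fold of a listed gene was taken against the floor. Log2 differences, medians and counts used such signals as they were. The procedure was tested on simulated data.

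The 7 genes, the lists and the alternatives were chosen with earlier results of these data known. Named genes were the 7, up to 4 of each pathway list with the largest absolute difference, 15 genes by symbol and the 2 nearest genes in signal and difference. Marker lists are given by their medians. Of the 182 list entries 23 are not analysed here, as the annotation did not tie a probe set to them alone.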

Additional observations from a re-analysis of the deposited data

How the results depend on the processing

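The differences were recomputed without centring, with quantile normalization, with 32 added to the signals, with low signals set to the floor, with the floor at the 75th percentile or absent, with the median over probe sets, without probe sets whose identifier marks possible matches to other transcripts, and without muscle markers in the centring. Bdh1, Acat1, Slc16a1, Pdk2 and Pdk4 kept their sign in these 9 alternatives and moved by less than the SD between probe sets at like signal. Pdk1 turned from -0.16 to 0.15 without the probe sets so marked, which leaves out its brightest one. The count of genes at least 1.5-fold higher was 2 or 3 throughout, also with any 1 gene left out, and the count lower was 0. The share of all genes beside these counts varied widely. With 32 added to the signals, 2.49% of all genes passed 1.5-fold upwards and 2.31% downwards. Without a floor these shares were 15.7% and 19.5%, so like counts do not stand beside like backgrounds. The median over the genes ran from 0.18 to 0.60 with 1 gene left out, and it was 0.23 without a floor, where Pdk3 enters, and 0.31 with the median over probe sets. No paired analysis was possible because each group has 1 array. With 1 array of pooled RNA per group, the spread between mice and between arrays is unknown.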
